A study of Drosophila melanogaster with 2 samples.

Results

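The 10 genes described here are dup, Mcm2, RnrS, CycE, E2f1, Dp, Cdk1, CycB, stg and aurA, which act in DNA replication and in the cell cycle of Drosophila melanogaster, out of 13945 protein-coding genes on the 6 chromosome arms with peaks. They were named one by one and were selected on the same peak lists that are described below, with the positions and scores of their summits known, so their values are given as a description and carry no test. The data are ChIP-seq peak lists for the protein of CG3407, from whole embryos of pooled males and females aged 0 to 14 h, of the strain CG3407-GFP. This line stably expresses CG3407 fused at its C terminus to green fluorescent protein (GFP), from an insertion, and every embryo of the study carries it. Both biological replicates belong to this 1 group, so the design holds no contrast between conditions. Peaks from untagged embryos or from the control were not analysed here, and a whole embryo mixes all its cell types, dividing or not. The free-text label of each library calls it an input control, whereas its assay and antibody fields give a ChIP library against the tagged protein; the lists were read as ChIP because they were made against a separate control.

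A cell prepares replication by loading the MCM helicase on origins, and the factor encoded by dup (double parked, the fly Cdt1) brings it there together with the origin recognition complex. Entry into S phase depends on Cyclin E with its kinase, and on the E2f1 and Dp heterodimer, which activates genes for S phase such as those of cyclins, replication proteins and nucleotide synthesis. Entry into mitosis depends on Cdk1 with Cyclin B, once the phosphatase String has removed inhibitory phosphates from Cdk1. The first divisions of the fly embryo run on maternal supplies, and the later ones are timed by transcription of stg.

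Of the summits near these genes, the sequences at 5 carry the main descriptions below: the strongest of all, inside E2f1, the one inside CycE, and the summits at the starts of Cdk1, Mcm2 and aurA, each of which lies between a pair of genes that start in opposite directions. Each run shows 151 bases of the dm6 assembly, from the RefSeq copy, on the strand of the named gene from 5′ to 3′. The 21 bases in capitals are centred on the summit of the pooled data.
E2f1, intron, chr3R:21633848-21633998, minus strand: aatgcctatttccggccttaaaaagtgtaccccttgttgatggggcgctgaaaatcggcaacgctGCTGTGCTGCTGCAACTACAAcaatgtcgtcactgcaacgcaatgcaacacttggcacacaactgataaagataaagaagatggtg
CycE, intron, chr2L:15747174-15747324, minus strand: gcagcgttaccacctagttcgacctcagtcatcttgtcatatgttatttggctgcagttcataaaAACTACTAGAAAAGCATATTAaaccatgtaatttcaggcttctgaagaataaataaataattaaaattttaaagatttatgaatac
Cdk1, start shared with mRpS7, chr2L:10386367-10386517, minus strand: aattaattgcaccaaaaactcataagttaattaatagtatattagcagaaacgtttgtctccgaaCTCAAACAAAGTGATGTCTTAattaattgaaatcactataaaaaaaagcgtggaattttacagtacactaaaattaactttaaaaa
Mcm2, start shared with RPA1, chr3R:8264748-8264898, plus strand: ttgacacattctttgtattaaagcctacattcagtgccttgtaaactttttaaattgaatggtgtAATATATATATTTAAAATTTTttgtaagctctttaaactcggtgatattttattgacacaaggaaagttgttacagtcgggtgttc
aurA, start shared with CG3281, chr3R:11962890-11963040, plus strand: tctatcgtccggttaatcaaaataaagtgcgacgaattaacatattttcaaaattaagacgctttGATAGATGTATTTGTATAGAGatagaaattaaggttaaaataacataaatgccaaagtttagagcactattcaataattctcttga
The 3 windows between gene pairs are poor in G and C, with a GC content of 25.2% at Cdk1, 29.1% at Mcm2 and 27.8% at aurA, and that of CycE holds 30.5%. The window inside E2f1 stands apart from them with 47.0%. The median over all 4089 IDR summits is 33.8%.

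Each replicate has a list of 30000 candidate intervals, and a further list of 30000 was made from both replicates together (the pooled list). The irreproducible discovery rate (IDR), which compares the ranking of peaks between replicates, left 4089 of the pooled intervals, and these are the 4089 with the highest pooled scores. Scores are those of the authors' peak caller and have a scale of their own in each list, so ranks serve to set lists side by side. The IDR scores run from 163 to 23642 with a median of 262. Read totals were not analysed here, and the depth behind each score is unknown. A summit counted as being at a gene's start when it lay within 500 bp of any annotated transcription start site (TSS), and the window of a gene is its body with 5 kb on either side.

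The windows of 9 of the 10 genes held 20 IDR summits, of which 8 lay at a TSS of the gene, 5 elsewhere in its body and 7 in a flank. By this count 7 genes had an IDR summit at a TSS, namely dup, Mcm2, RnrS, E2f1, Dp, Cdk1 and aurA. Among all protein-coding genes the share with an IDR summit at a TSS was 14.1%, and 40.4% had one in the window. Nothing about cell cycle genes is read from the difference, because the genes were selected on these summits. The remaining genes differ among themselves: CycE and CycB had strong summits away from their starts, and stg had none in its window.

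**Figure D1:**
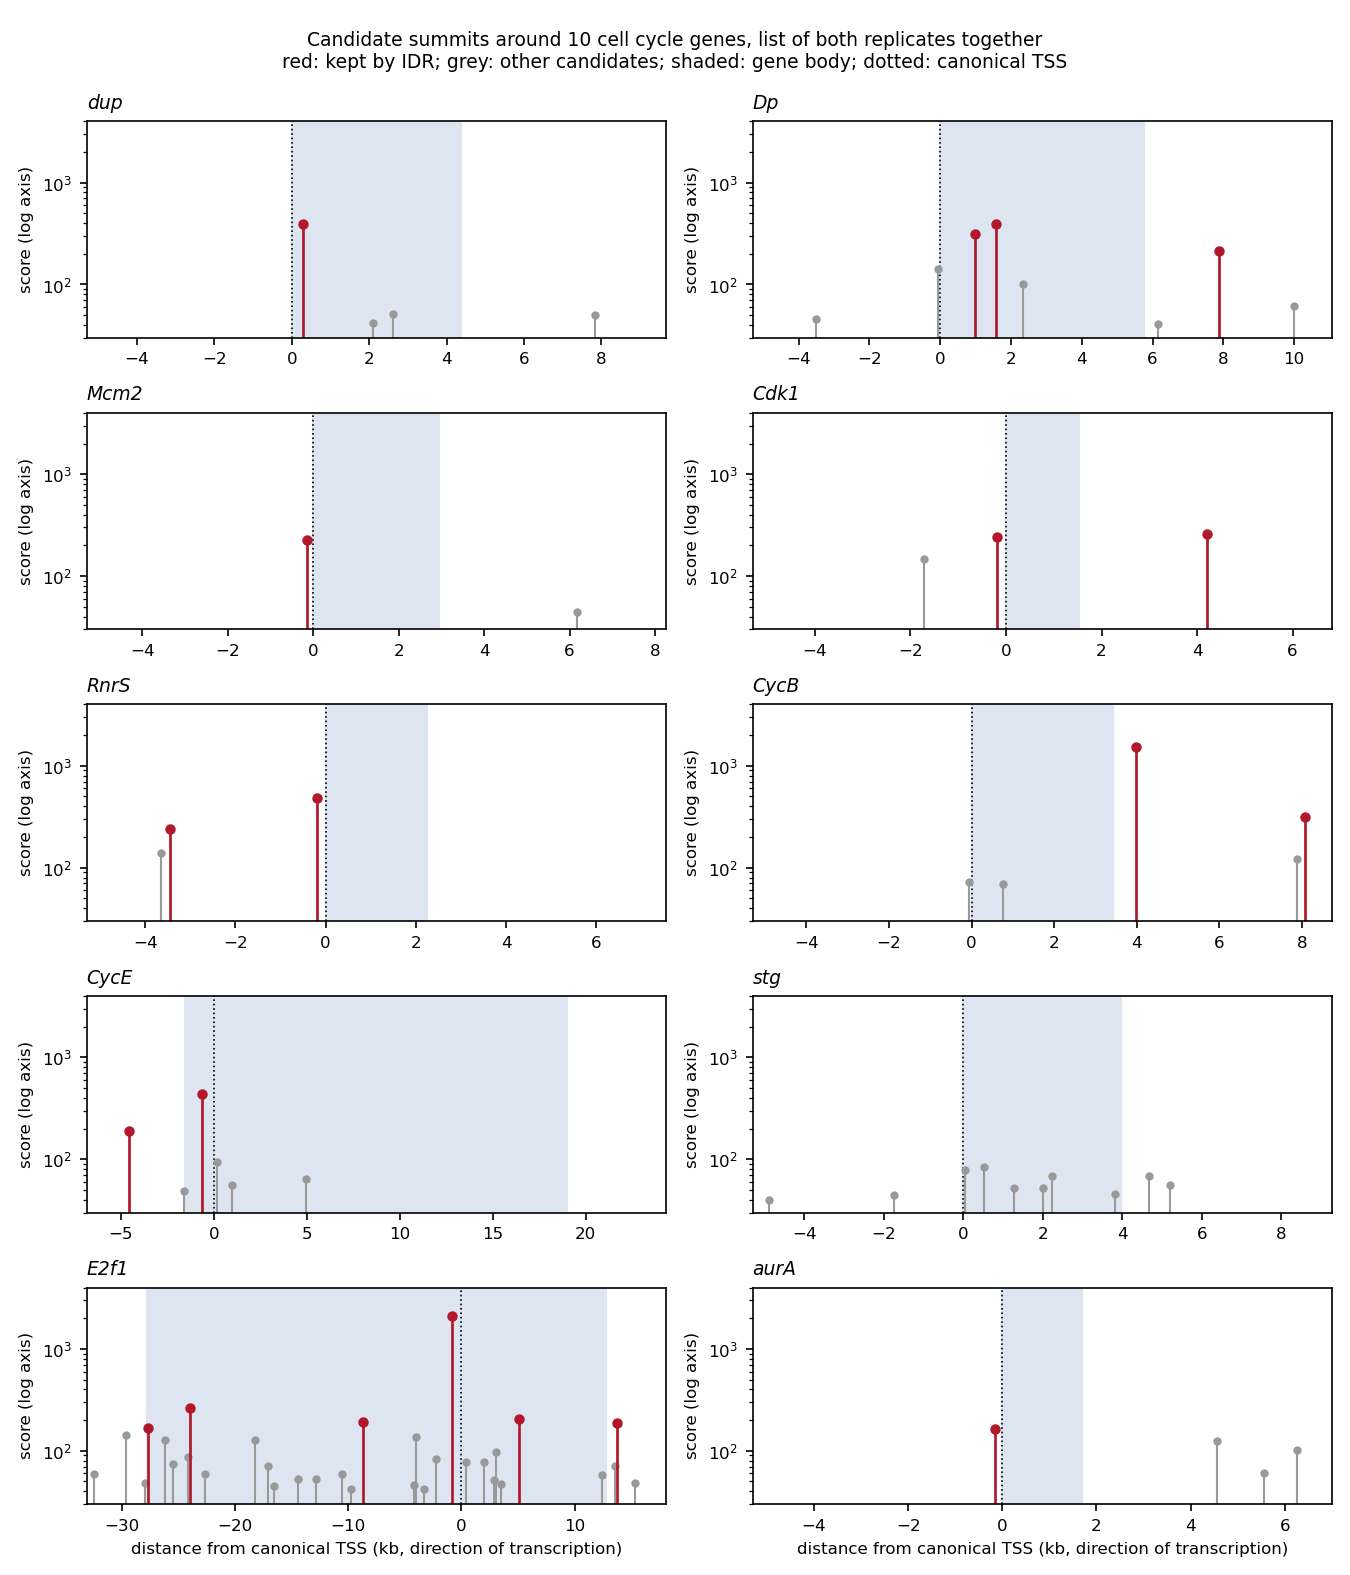
Pooled candidate summits in the windows of the 10 genes, by distance from the canonical TSS in kb (x axis, in the direction of transcription) and by score on a log axis (y axis); red stems are the IDR summits, grey stems other candidates, shading the gene body. The highest red stems stand inside E2f1 (score 2086) and on the 3′ side of CycB (score 1528), while stg has grey stems alone.

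Over the 7 genes the strongest IDR summit at a TSS had scores from 163 at aurA to 487 at RnrS, with a median of 242, and all bound protein-coding genes, meaning those with an IDR summit at a TSS, had a median of 292. The 2 summits that stand out by score, inside E2f1 and beside CycB, both lay more than 500 bp from every TSS of their gene and do not enter this count.

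The licensing factor gene dup (FBgn0000996, chr2R:15376619-15380988, minus strand) had 1 IDR summit, at chr2R:15380654-15380757, with a score of 392 and rank 1036. It fell in the annotated 5′ UTR of the longer dup transcript, 88 bp upstream of the inner TSS of dup and 286 bp downstream of the outer one. The same summit was 22 bp upstream of the start of SRPK, the gene of a kinase of splicing factors, which runs the other way. Replicate 1 scored it 181 (rank 874 of 30000) and replicate 2 scored it 215 (rank 1185), and the summits of the replicates were 11 bp apart. Its rank was thus among the first 4089 candidates in either replicate.

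Mcm2 (FBgn0014861, chr3R:8264970-8267924, plus strand), a subunit gene of the MCM helicase, shares its summit with another replication gene. The IDR interval chr3R:8264615-8265030 had a score of 226 and rank 2553, and its summit lay 147 bp upstream of Mcm2. RPA1, which encodes the large subunit of the complex that coats single-stranded DNA, starts in the opposite direction 372 bp from the same summit. The scores were 114 in replicate 1 (rank 1899) and 115 in replicate 2 (rank 3307), with the summits 58 bp apart. One summit therefore counts for both genes.

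RnrS (FBgn0011704, chr2R:11983145-11985393, minus strand) encodes the small subunit of ribonucleotide reductase, which makes the building blocks of DNA. It had the highest score of the 10 genes at a TSS, 487 with rank 706, at chr2R:11985483-11985710, and the summit was 202 bp upstream of RnrS and 413 bp upstream of CG34231. Replicate 1 gave 244 (rank 508) and replicate 2 gave 245 (rank 944). A second IDR summit in the window, with a score of 237, lay 3444 bp upstream of RnrS but 50 bp from the start of rho-7, the gene of a mitochondrial protease, and 294 bp from that of CG8298.

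CycE (FBgn0010382, chr2L:15727581-15748150, minus strand), the gene of the cyclin that drives cells into S phase, had no IDR summit within 500 bp of its 3 TSSs. Its strongest summit missed that limit: it lay in an intron 639 bp upstream of the canonical TSS and 901 bp downstream of the outermost one, at chr2L:15747139-15747343, with a score of 438 and rank 859. Among the 20 summits, the nearest to the 500 bp limit were this one, outside it, and a Dp summit at 414 bp, inside it. Its score is above that of every IDR summit at a TSS of the other genes except RnrS. Replicate 1 had a single candidate here with a score of 257 (rank 452). Replicate 2 had a pair of neighbouring candidates, with scores of 181 (rank 1615) and 88.6 (rank 4910). At the starts themselves the pooled list held weak candidates, with a score of 94.0 (rank 8630) at 163 bp downstream of the canonical TSS, near the start of lncRNA:CR44974, and 49.0 (rank 22171) at 71 bp upstream of the outermost TSS, near that of asRNA:CR44866. The other IDR summit of the window, with a score of 189, was 115 bp from the start of ND-B17, a gene of mitochondrial complex I.

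E2f1 (FBgn0011766, chr3R:21620304-21660871, minus strand) had the strongest summit of the set and the most summits. The interval chr3R:21633730-21634160 had a score of 2086 and rank 39 of 4089, and its summit lay in an intron, 850 bp upstream of the canonical TSS and 26948 bp downstream of the outermost TSS. It ranked 44 in replicate 1 (score 827) and 38 in replicate 2 (score 1262), with the summits 11 bp apart. In the IDR list it scored 7.96 times the next summit of the window, and in the single replicates 6.95 and 8.17 times the next candidate there. Ranks and positions were close between the replicates at this site.

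The other 5 IDR summits in and near E2f1 had scores from 167 to 262, the highest at the median of the IDR list. Of these, 3 were intronic, with scores of 262 at 3414 bp downstream of the nearest TSS, 204 at 4710 bp downstream and 191 at 3246 bp upstream. At the start of the longest transcripts a summit in the 5′ UTR, 146 bp downstream of the outermost TSS, had a score of 167 and rank 3928. It is the sole reason that E2f1 counts as having an IDR summit at a TSS. Replicate 2 scored it 136 (rank 2538), and replicate 1 had a candidate of 29.7 (rank 15367) that lay 166 bp away from that of replicate 2. At the starts near the canonical TSS the best pooled candidate had a score of 77.0 (rank 11454), 61 bp downstream of a TSS of E2f1 and 73 bp upstream of that of asRNA:CR46055. The sixth summit, with a score of 186, was 963 bp beyond the end of E2f1 and 20 bp from the start of InR, the insulin receptor gene. With 6 IDR summits in a window of 50.6 kb, E2f1 held 11.9 per 100 kb, and all 6 arms held 3.05 per 100 kb. As many or more were in the windows of 0.688% of protein-coding genes. The gene is 40568 bp long, and a median protein-coding gene 2166 bp. Per 100 kb of window, Dp (19.0), Cdk1 (17.4), RnrS (16.3) and CycB (14.9) held more IDR summits than E2f1, and aurA (8.54), Mcm2 (7.72), dup (6.96), CycE (6.54) and stg (0) fewer. With 1 summit each, aurA, Mcm2 and dup were also above the 3.05 of the arms. Such a rate depends on the length of the window, and it was not computed for the windows of all protein-coding genes.

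**Figure D2:**
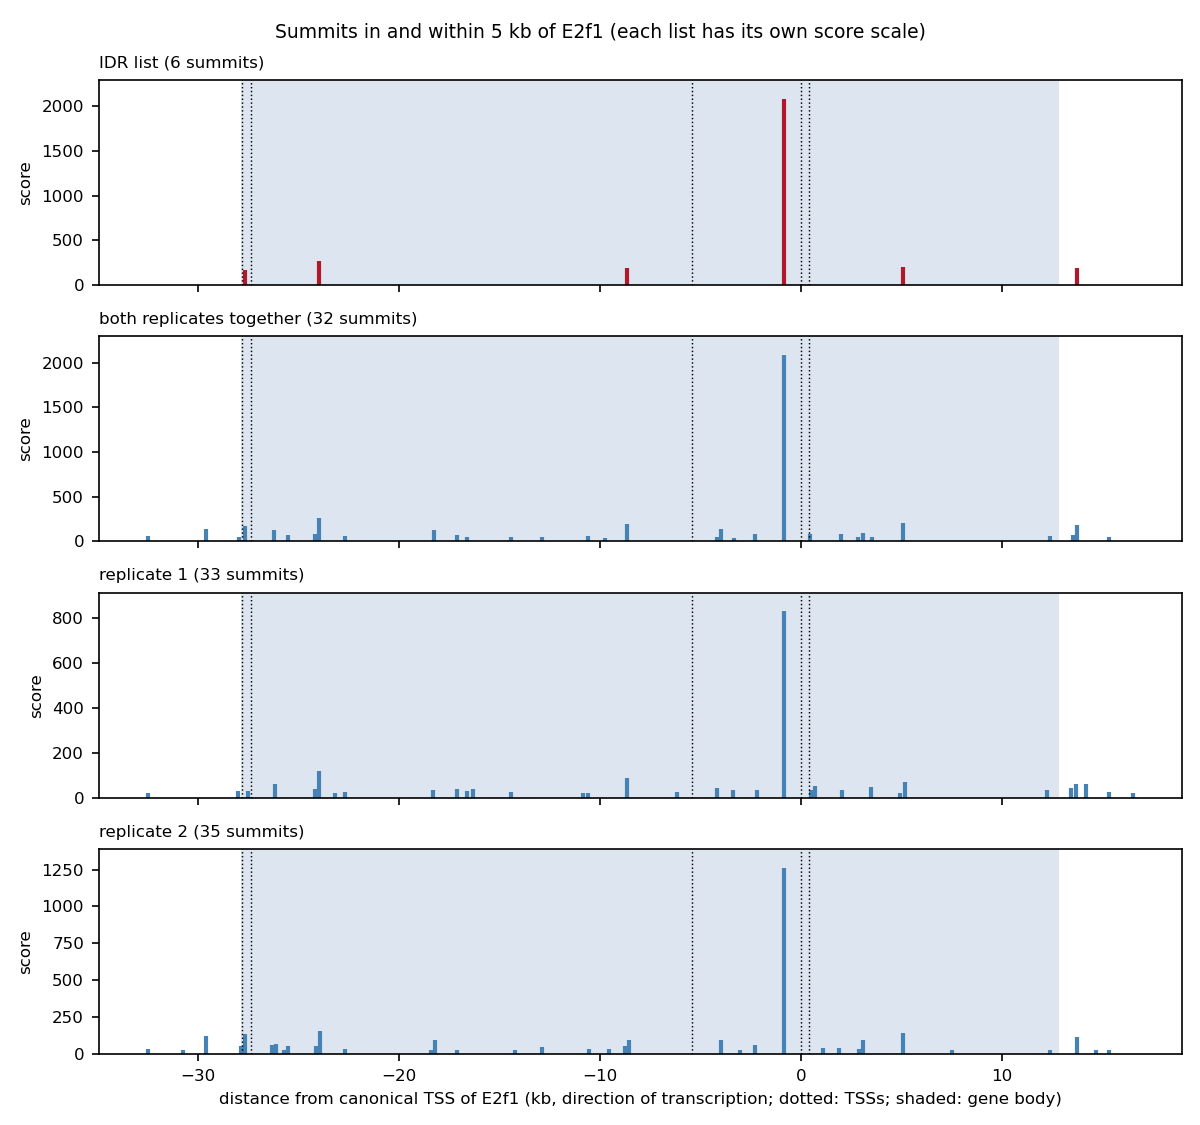
Scores (y axis, each list on its own linear scale) of all summits in and within 5 kb of E2f1 by distance from its canonical TSS in kb (x axis), in the IDR list, the pooled list and each replicate; dotted lines are TSSs and shading is the gene body. One summit, 850 bp upstream of the canonical TSS, is the highest in all 4 lists, and the 32 pooled candidates include 31 lower ones.

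Dp (FBgn0011763, chr2R:13222433-13228202, plus strand), which encodes the partner of E2f1 in the heterodimer, had 2 IDR summits at internal starts. One, at chr2R:13223195-13223610, lay 188 bp upstream of the second TSS with a score of 316 (rank 1521), and the other, at chr2R:13223930-13224050, 414 bp downstream of it with a score of 394 (rank 1029). The latter is also 457 bp downstream of the start of lncRNA:CR43918. The former was scored 121 in replicate 1 (rank 1738) and 187 in replicate 2 (rank 1511), the latter 156 (rank 1118) and 232 (rank 1035). The canonical TSS of Dp, which faces Fsn, a gene of an F-box protein, had a candidate with a score of 142 (rank 4909), outside the IDR list. In the 3′ flank a summit with a score of 214 lay 77 bp from Pex13, a gene of peroxisome import.

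Cdk1 (FBgn0004106, chr2L:10384739-10386262, minus strand), the kinase gene of mitosis, had an IDR summit at chr2L:10386234-10386649 with a score of 242 and rank 2285. It lay 180 bp upstream of Cdk1 and 220 bp upstream of mRpS7, which encodes a mitochondrial ribosomal protein and starts the other way. The replicates disagreed: replicate 2 had a candidate with a score of 112 (rank 3464), and the list of replicate 1 had none within 200 bp. Such summits made up 3.40% of the IDR list (139 of 4089). The other IDR summit of the window, with a score of 260, lay 215 bp from the start of CG5096 and in the 3′ UTR of gny, and was found in both replicates (ranks 2672 and 1872).

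CycB (FBgn0000405, chr2R:22803521-22806948, minus strand) encodes the mitotic cyclin, and its strongest summit was on the far side of the gene. The interval chr2R:22802806-22803123 had a score of 1528 and rank 66, the second highest of the 20. Its summit was 546 bp beyond the 3′ end of CycB and 795 bp beyond the 3′ end of blw, a gene of mitochondrial ATP synthase, in the 1341 bp between the ends of these converging genes. No TSS of any gene lay within 500 bp of it. It ranked 65 in replicate 1 (score 618) and 64 in replicate 2 (score 902), with the summits 3 bp apart, the closest pair of the set together with one at Dp. At the starts of CycB the pooled list held weak candidates, with scores of 72.1 (rank 12598) at 53 bp upstream of the outermost TSS and 69.9 (rank 13160) at 112 bp downstream of the innermost one. The other IDR summit, with a score of 317, was 232 bp from the start of blw.

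For aurA (FBgn0000147, chr3R:11963124-11964826, plus strand), a kinase gene of the spindle poles, the summit was the weakest of those at a TSS and just inside the IDR list. Its score of 163 at chr3R:11962757-11963172 gave rank 4068 of 4089. The summit was 159 bp upstream of aurA and 160 bp upstream of CG3281, almost midway between their starts. Replicate 1 scored it 110 (rank 1979) and replicate 2 scored it 51.9 (rank 10724), and the summits were 118 bp apart. The replicates therefore placed it on different sides of rank 4089.

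The phosphatase gene stg (FBgn0003525, chr3R:29251826-29255800, minus strand) had no IDR summit in its window. The pooled list held 10 candidates there, with scores from 39.5 to 83.0. The best of them, 52 bp downstream of the inner TSS, ranked 10250, and the next at a start, 30 bp downstream of the outer TSS, had a score of 78.8 (rank 11051). At its starts the best candidate of replicate 1 had a score of 48.6 (rank 6521) and that of replicate 2 one of 57.4 (rank 9285). The nearest IDR summit lay 9512 bp beyond the 5′ end of stg, with a score of 199.

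Across the 20 IDR summits, 19 had a candidate within 200 bp in replicate 1 and all 20 in replicate 2. Of these, 17 were among the first 4089 of replicate 1, 17 among those of replicate 2, and 14 among both. Over the whole IDR list, 3.40% of summits had no candidate within 200 bp in replicate 1 and 0.514% in replicate 2. The counterparts of the counts 17, 17 and 14 over all 4089 IDR summits were not made, so they describe these 20 summits alone. The replicates' summits were 3 to 166 bp apart, with a median of 18 bp over the 19 pairs. Among the 7 genes with an IDR summit at a TSS, 4 had one among the first 4089 of both replicates, namely dup, Mcm2, RnrS and Dp. The other 3 rested on 1 replicate each by that measure: aurA on replicate 1, and E2f1 and Cdk1 on replicate 2. How often this holds among all bound protein-coding genes was not counted. The first 4089 candidates of replicate 1 reached a TSS of 5 of the 10 genes and those of replicate 2 a TSS of 6, and in each replicate the share of all protein-coding genes was 14.1%. In the full lists of 30000, a candidate lay at a TSS of all 10 genes in the pooled list (41.6% of protein-coding genes), of 9 in replicate 1 (36.1%) and of all 10 in replicate 2 (47.2%).

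**Figure D3:**
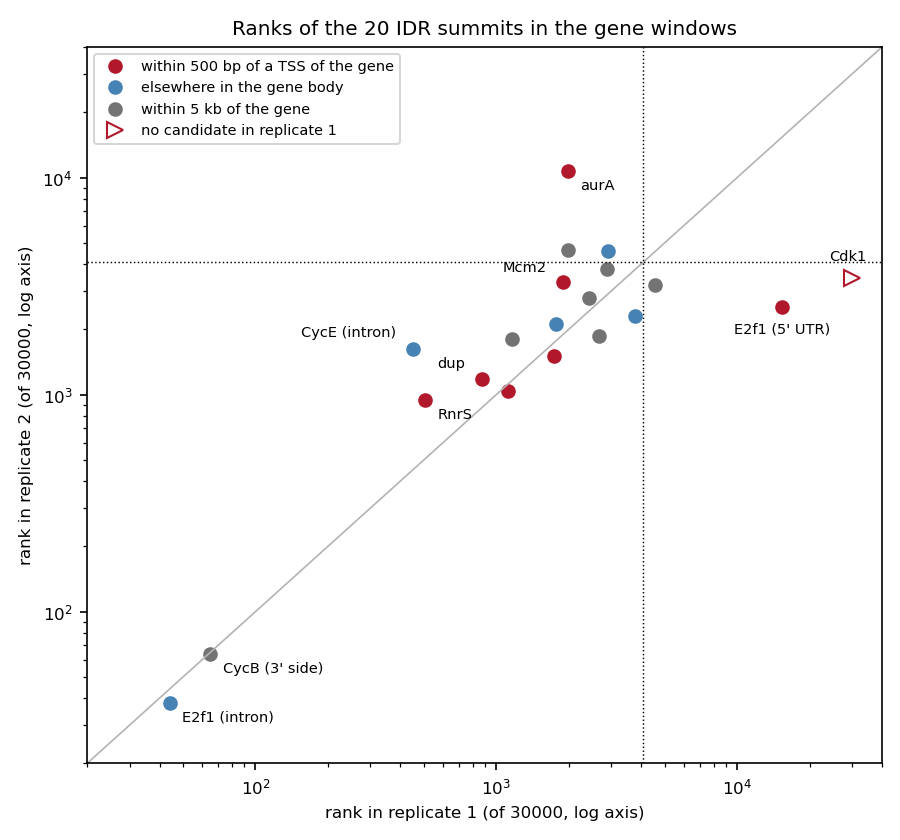
Rank in replicate 1 (x axis) and in replicate 2 (y axis), both on log axes, of the candidate matched within 200 bp to each of the 20 IDR summits; colours give the position relative to the gene, dotted lines mark rank 4089, the grey line equal ranks, and the open triangle at the right edge is the Cdk1 summit, which has no candidate in replicate 1. The summits of E2f1 (intron) and CycB lie at the lower left, aurA lies above the horizontal line and the 5′ UTR summit of E2f1 to the right of the vertical line.

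Several of these summits lay within 500 bp of the starts of a pair of genes. Of the 7 genes with an IDR summit at a TSS, 5 (dup, Mcm2, RnrS, Cdk1 and aurA) shared it with another protein-coding gene. Among the 1964 protein-coding genes with such a summit 54.5% did. This is a share of genes, in which a shared summit counts once for each gene it reaches. The share of peaks was not counted. In each of the 5 pairs the genes ran in opposite directions with the summit upstream of a TSS of both. In the flanks, 6 of the 7 IDR summits lay within 500 bp of a TSS of another gene. The remaining one was the site beyond the end of CycB. All 7 were assigned to the windows by distance, and to which gene they belong was not tested. The share of all IDR summits that lie within 500 bp of any TSS was not counted, so whether 6 of 7 is unusual is not known. The summits at TSSs were upstream of the nearest TSS of the gene in 6 of 8 cases, with a median position of −153 bp. The side depends on the TSS used. From the canonical TSS, the dup summit lay 286 bp downstream and the first Dp summit 970 bp downstream. The E2f1 summit in the 5′ UTR then lay 27652 bp upstream, and the other summits kept their side. The share of upstream summits over all IDR summits at TSSs was not counted.

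The sequence around the summits was searched for 9 motifs: TATCGATA (the DRE, bound by Dref, a factor known from replication gene promoters), the E2F site TTTCCCGC, its form TTTGGCGC and its form TTTCGCGC, GAGAG (the GAGA core), CAGGTAG (a site of Zelda), TATTTAC (a word picked earlier on these same summits), GTAAACA (a forkhead type site) and CACGTG (an E box), each read on both strands. They do not contain one another, but GTAAACA and the other strand of TATTTAC share the stretch GTAAA. Within 50 bp of the strongest pooled summit at a TSS, 0 of the 10 genes held any of them. Among the 5806 protein-coding genes with a pooled summit at a TSS, the same window held TATCGATA in 2.96%, the 3 E2F sites in 0.499%, 0.586% and 0.465%, GAGAG in 10.3%, CAGGTAG in 0.654%, TATTTAC in 4.79%, GTAAACA in 4.03% and CACGTG in 0.982%. No match says only that these letters are not in the window. In windows of 100 bp on either side dup held TTTGGCGC (1.41% of genes), CycE held GAGAG (21.2%) and Dp held TATTTAC (8.73%), and the match at dup lay 66 to 73 bp downstream of the summit. The 75 bp on either side of the other IDR summits held CAGGTAG at the intronic E2f1 summit with a score of 204 and TATTTAC at the Pex13 start beside Dp. The strongest E2f1 summit and that beyond CycB held none of the 9 motifs.

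The base composition at the 20 summits fell into a low and a high range. In windows of 151 bp the high range ran from 46.4% to 52.3% GC and held 5 summits: that of dup (46.4%), the strongest one of E2f1 (47.0%), that in the 5′ UTR of E2f1 (49.0%), the one at the start of InR (49.7%) and the first of Dp (52.3%). The other summits had 23.2% to 36.4%, among them the starts of Cdk1, RnrS, aurA and Mcm2 (25.2% to 29.1%), the site beyond CycB (29.8%) and the second Dp summit (31.8%). The 2 highest scores of the set, at E2f1 and beyond CycB, came from different ranges.

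To place the 10 genes in their pathway, 84 genes of replication and the cell cycle, the 10 included, were listed by role. Of the 84, 17 had an IDR summit at a TSS (20.2%, beside 14.1% of all protein-coding genes). Without the 10 genes the count was 10 of 74 (13.5%), which is near the share of all genes. That count still includes RPA1, through the summit it shares with the selected gene Mcm2. By role, 2 of 15 origin licensing genes had one, 2 of 8 for origin firing, 2 of 19 at the replication fork, 2 of 5 for nucleotide supply, 2 of 12 in control of G1 to S, 4 of 13 for entry into mitosis and 3 of 12 among checkpoints and exit from mitosis. These counts include the 10 selected genes. Genes outside the 10 numbered 0 for licensing, 2 for firing, 2 at the fork and 1 for nucleotide supply. For G1 to S control they numbered 0, for entry into mitosis 2 and for checkpoints and exit 3.

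The 10 other genes with an IDR summit at a TSS had scores from 174 to 646, with a median of 216. PolD2, a small subunit of DNA polymerase delta, had the highest score, 646 with rank 412 (ranks 433 and 395 in replicates 1 and 2). The checkpoint kinase gene mei-41, the fly ATR, followed with 385, Cdc7, the kinase gene that fires origins, with 296, and Incenp, of the chromosomal passenger complex, with 245. RPA1 had the score of 226 of the summit it shares with Mcm2. dUTPase, which keeps uracil out of DNA, had 207, and Bub3, of the spindle checkpoint, 200. The lowest scores were at grp, the fly Chk1, with 191, at chif, the partner of Cdc7, with 178, and at aurB, the kinase of the passenger complex, with 174. All 10 were at TSSs reached by the first 4089 candidates of replicate 1 and 7 also by those of replicate 2, the exceptions being chif, aurB and grp. The same counts over all bound protein-coding genes were not made, so these describe the 10 genes alone. At 8 of the 10 the summit was also within 500 bp of another gene's start, which for RPA1 is that of the selected gene Mcm2. Among the 1964 bound protein-coding genes, 54.5% shared their summit with another protein-coding gene. The count of 8 allowed a partner of any kind.

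**Figure D4:**
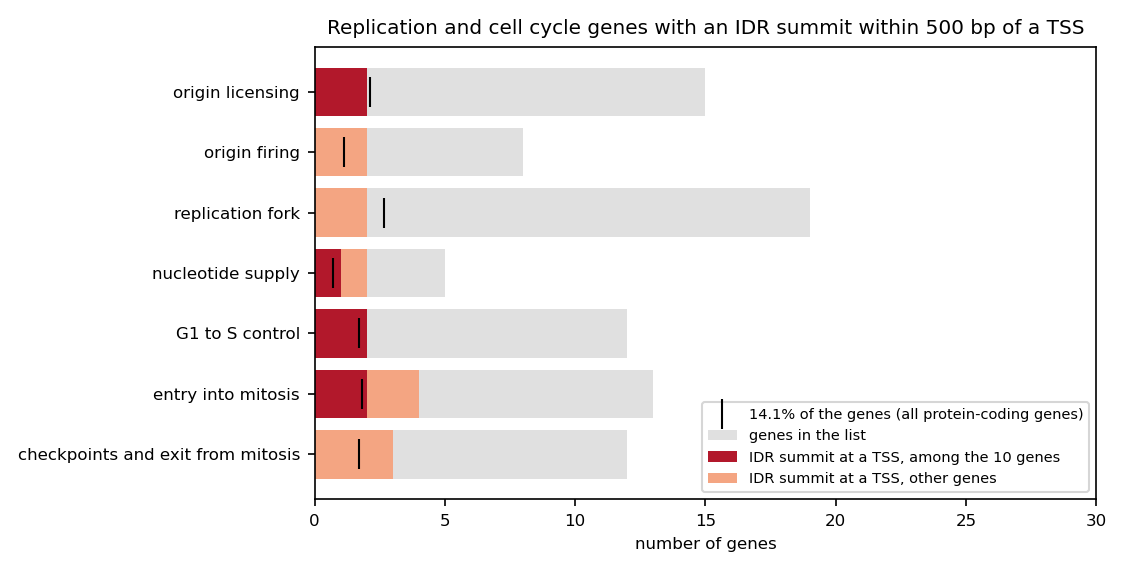
Number of genes (x axis) by role in the list of 84 replication and cell cycle genes (grey), with those that have an IDR summit within 500 bp of a TSS among the 10 genes described here (dark red) and among the others (light red); black ticks mark 14.1% of each group, the share of all protein-coding genes. Genes with a summit number 2 in each of 5 groups, 4 for entry into mitosis and 3 for checkpoints and exit.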

How the data were processed

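ChIP-seq was done on whole embryos of the CG3407-GFP line in 2 biological replicates. Per the file headers, alignments and 1 control file gave the deposited candidate lists, from which IDR took its peaks, on dm6. The sources used here do not give an aligner, a caller of peaks or a cutoff for IDR. The score of each interval is the deposited value of the authors' peak caller, specific to its list. The deposited −log10 q column was not used. The summit is the start of the interval plus the deposited offset.

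Genes and TSSs came from Ensembl release 115, without transposable elements; the 10 genes have the same coordinates in the RefSeq copy of the assembly (10 of 10). Each summit was assigned by distance to every TSS (500 bp) and by gene body with 5 kb flanks. Counting was checked on planted summits. The members, the list of 84 genes, the motifs and the alternatives were chosen with earlier results of these data known. Named genes are the 10, genes that share their summits, genes of the list with an IDR summit at a TSS, and genes nearest to flank summits; Rbf2, dpa and lok fall outside this rule. No test was used: there is 1 group, and the genes were selected on the lists. Ranks in 2 replicates show how far the replicates agree at a summit. They are no estimate of error, because IDR kept the summits by comparing these rankings. Alternatives were TSS windows of 250 and 1000 bp, the canonical TSS, the interval over the TSS and the 2044 highest IDR peaks. Others were flanks of 2 and 10 kb, and the highest candidates of either replicate alone in place of the IDR list. Python 3.11.15 with pandas 2.3.3, numpy 2.4.6 and matplotlib 3.10.9 was used.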

Additional observations from a re-analysis of the deposited data

How the results depend on the processing

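The count of 7 genes with an IDR summit at a TSS was 7 with a window of 250 bp (10.9% of protein-coding genes at that setting) and 8 with 1000 bp (16.8%, the added gene being CycE). It was 5 at the canonical TSS alone (11.9%, without E2f1 and Dp) and 5 where the interval itself had to cover the TSS (8.15%). With a replicate left out, the highest candidates of the other replicate were counted in place of the IDR list, as many as that list holds. These are the counts of single replicates given above, 5 for replicate 1 and 6 for replicate 2 (14.1% in either). They are not a test of the IDR count. Among the 2044 highest IDR peaks the count of 7 fell to 3, namely dup, RnrS and Dp, where the share of protein-coding genes was 8.05%. At the same settings, with the same shares of protein-coding genes, the count of 17 in the list of 84 genes also moved. It was 14 and 20 with the 250 and 1000 bp windows and 15 at the canonical TSS. It was 6 among the 2044 highest peaks and 11 where the interval had to cover the TSS. The highest candidates of replicate 2 alone gave 13 and those of replicate 1 alone gave 21. The cause of these moves was not tested. The count of 9 genes with an IDR summit in the window was 9 and 10 with flanks of 2 and 10 kb (28.0% and 55.0% of protein-coding genes). It was 6 among the 2044 highest peaks (25.8%). The highest candidates of replicate 2 alone reached the windows of 8 genes (40.5%) and those of replicate 1 alone the windows of 9 (39.9%). Motif counts were 0 of 10 within 50 bp and at most 2 of 10 within 150 bp (GAGAG, at Dp and CycE, beside 30.9% of the 5806 genes). No paired analysis was possible because there is 1 group. Depth is unknown, so a missing candidate does not show that the protein is absent.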

Other observations

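Of the 84 genes, 7 had a candidate at a TSS in replicate 1 but in neither replicate 2 nor the pooled list, and 12 had one in replicate 2 but in neither replicate 1 nor the pooled list. Among the first 4089 candidates of their replicate were 3 of the 7 and 0 of the 12, whose best rank was 5340. The 3 were named after their values were seen. Rbf2, which encodes a retinoblastoma family repressor partner of E2F factors, had a candidate 137 bp upstream of its TSS with a score of 151 and rank 1197 in replicate 1, and none within 500 bp of a TSS in replicate 2, the pooled list or the IDR list. The same absence held for dpa, the MCM4 subunit gene, and for lok, the fly Chk2. The dpa candidate of replicate 1 lay 117 bp downstream of a TSS, with a score of 85.0 and rank 2941. That of lok lay 180 bp upstream, with a score of 76.5 and rank 3413. Of the first 4089 candidates of replicate 1, 42 had no pooled candidate within 200 bp (1.03%), and of those of replicate 2, 97 (2.37%). These are shares of candidates and not of genes, so they are no measure for the counts of 7, 12 and 3. The matching counts over all protein-coding genes were not made, and whether the 3 genes are unusual is not known.

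Several genes of the list had an IDR summit in their window but none at a TSS, so that 44 of 84 had one in the window (52.4%, beside 40.4% of all protein-coding genes). Without the 10 genes this was 35 of 74 (47.3%). Longer genes have more room for a summit in the window, and the lengths of the listed genes were not set beside those of all genes. Nothing about cell cycle genes is read from these shares.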
